A study of Mus musculus with 7 samples.

Results

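The Cyp3a and Cyp2a genes encode cytochrome P450 enzymes, and 10 of their members were examined here, out of 23366 genes in each deposited table. They were taken by gene symbol: 6 Cyp3a genes (Cyp3a11, Cyp3a13, Cyp3a16, Cyp3a25, Cyp3a41a and Cyp3a44) and 4 Cyp2a genes (Cyp2a4, Cyp2a5, Cyp2a12 and Cyp2a22). RNA had been sequenced from the liver of the widely used inbred mouse strain C57BL/6, in a group aged 21 months (3 libraries) and a group aged 3 months (4 libraries). No treatment or altered allele is named for either age. Sequencing was strand-specific and followed enrichment of polyadenylated RNA. The comparison asks how the liver transcripts of old mice differ from those of young adults.

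Cytochrome P450 enzymes are heme proteins of the endoplasmic reticulum that oxidise steroids, bile acids, drugs and plant compounds, with electrons passed on by P450 oxidoreductase. Cyp3a enzymes are the main drug oxidases of the adult liver, and their chief inducer is PXR (Nr1i2), a nuclear receptor activated by many foreign compounds, beside the related receptor CAR (Nr1i3). Cyp2a enzymes oxidise coumarin, nicotine and testosterone, and several copies of both families are known to differ between the sexes or between fetal and adult mouse liver.

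Of the 7 members with enough counts to be tested, Cyp3a11 and Cyp3a13 rose at 21 months, Cyp2a4 fell, and Cyp3a25, Cyp2a5, Cyp2a12 and Cyp2a22 did not pass the test. The rise of Cyp3a11 was 1.73-fold and that of Cyp3a13 was 1.42-fold, while Cyp2a4 was 4.02-fold lower in the livers of 21-month mice. Its near-identical copy Cyp2a5 had a higher mean at 21 months, so that the Cyp2a4 share of their joint counts was 0.787% ± 0.145 at 21 months (SD, n = 3), against 4.95% ± 0.305 at 3 months (SD, n = 4). The 3 calls among 7 tested members stand beside 11.3% of all 11251 genes tested, called by edgeR's quasi-likelihood test with a Benjamini-Hochberg adjusted p under 0.05. Called higher were 5.47% of all genes and called lower 5.86%. The members were chosen with earlier results of these data known, so the count of 3 calls is no independent support. Cyp3a16, Cyp3a41a and Cyp3a44 had too few counts to enter the test.

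Because the near-identical copies Cyp2a4 and Cyp2a5 had fold changes of opposite sign, their upstream sequences are shown first. The 4 Cyp2a members lie on chromosome 7 and, among themselves, in the RefSeq order Cyp2a4, Cyp2a5, Cyp2a22 and Cyp2a12. The lines give the 250 bases before each annotated start from RefSeq (GRCm38.p6), for Cyp2a4 chr7:26306942-26307191 and for Cyp2a5 chr7:26835089-26835338, both on the plus strand and written 5′ to 3′. Capitals mark the bases that differ between the genes in their alignment, in which 245 of 249 columns were identical (98.4%) and 4 were substitutions. The expression tables were made on the older build mm9, so no coordinates are given beyond those of the printed sequences.
Cyp2a4: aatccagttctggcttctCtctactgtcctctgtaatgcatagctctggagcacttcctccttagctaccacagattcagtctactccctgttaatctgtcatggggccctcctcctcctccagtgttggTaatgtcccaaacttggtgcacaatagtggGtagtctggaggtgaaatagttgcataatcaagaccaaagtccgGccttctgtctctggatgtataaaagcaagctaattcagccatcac
Cyp2a5: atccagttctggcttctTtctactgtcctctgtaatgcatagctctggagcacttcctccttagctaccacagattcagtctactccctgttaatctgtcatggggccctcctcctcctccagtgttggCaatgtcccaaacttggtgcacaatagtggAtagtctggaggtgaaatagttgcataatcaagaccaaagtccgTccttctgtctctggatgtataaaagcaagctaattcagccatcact
Both sequences hold the letters CAAAGTCC, a motif of the type bound by HNF4A, and one of the substitutions lies just downstream of it. That motif, searched on both strands, was found in 330 of 27025 promoters of the same length (1.22%), in 2 of the 4 Cyp2a members and in 3 of the 6 Cyp3a members. The members with it include near copies, Cyp2a4 with Cyp2a5 and Cyp3a16 with Cyp3a41a (93.9% identical), so these are not independent matches. Cyp2a12 and Cyp2a22 had 90.0% identity to each other in this window and 55.1% to 57.0% to the other pair. The motifs were chosen after the sequences were seen, and a match describes letters, not a bound site.

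The Cyp3a genes lie on chromosome 5, among themselves in the order Cyp3a13, Cyp3a57, Cyp3a16, Cyp3a41b, Cyp3a41a, Cyp3a44, Cyp3a11, Cyp3a25 and Cyp3a59. The next lines set Cyp3a11, the most abundant member, beside Cyp3a41a, a copy near 0 on the same chromosome. They are RefSeq sequences (GRCm38.p6) at chr5:145879855-145880104 for Cyp3a11 and chr5:145720137-145720386 for Cyp3a41a, both on the minus strand, with CAAAGTCC in capitals.
Cyp3a11: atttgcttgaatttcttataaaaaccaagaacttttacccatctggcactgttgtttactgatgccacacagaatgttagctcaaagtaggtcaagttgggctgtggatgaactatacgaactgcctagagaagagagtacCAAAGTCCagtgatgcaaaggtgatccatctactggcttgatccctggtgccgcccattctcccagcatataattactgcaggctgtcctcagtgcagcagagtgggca
Cyp3a41a: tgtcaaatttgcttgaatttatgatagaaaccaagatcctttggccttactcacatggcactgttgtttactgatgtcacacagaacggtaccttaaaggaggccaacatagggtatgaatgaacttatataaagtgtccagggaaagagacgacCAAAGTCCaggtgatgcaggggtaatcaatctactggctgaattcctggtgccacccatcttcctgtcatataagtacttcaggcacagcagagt
The 2 windows were 76.1% identical, and both carry the motif although the RNA levels of the genes differ by orders of magnitude. Cyp3a16 carries it too. AGGTCA, a core motif of nuclear receptor sites that was also searched on both strands, was present in Cyp3a11, Cyp3a25 and Cyp3a44, in none of the 4 Cyp2a members and in 13.8% of all 27025 promoters. In Cyp3a11, the one member with both motifs, they did not overlap. The 250 bases of Cyp3a16 and Cyp3a44 were 95.9% identical, those of Cyp3a41a and its copy Cyp3a41b 99.6%, and those of Cyp3a25 and Cyp3a59 95.6%. Cyp3a13 had 54.2% to 58.7% identity to the other Cyp3a members.

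Levels are given in TPM, the deposited relative transcript abundance, which corrects for gene length, while fold changes come from the counts. Cyp3a11, the main drug-oxidising Cyp3a enzyme of adult mouse liver and a classic PXR target, had 3276, 2420 and 3350 TPM in 21-month livers, against 1734, 1482, 1988 and 1234 TPM in 3-month livers. Every 21-month library lay above every 3-month library. On the log2 scale the fold change was 0.79 ± 0.16 SE (edgeR adjusted p = 0.00751), and it was 0.69 to 0.97 when any 1 library was left out. With the shortfall of effective length in each library as a covariate it was 0.78 and did not pass (edgeR adjusted p = 0.0799). Cyp3a11 ranked 2 of 102 Cyp genes by mean TPM at 21 months and 3 of 102 at 3 months. In bulk liver, fewer cells of a type and less RNA per cell cannot be told apart, and this holds for every level here.

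Cyp3a13, a Cyp3a enzyme of liver and gut, had 76.8, 68.6 and 67.7 TPM in 21-month livers, against 47.1, 46.8, 49.4 and 41.2 TPM in 3-month livers. The ages did not overlap, and the libraries of each age lay close together. Its log2 fold change was 0.51 ± 0.10 SE (edgeR adjusted p = 0.00597), and its call was kept in all 18 alternatives tried (adjusted p 0.00105 to 0.0251). Cyp3a13 was the one Cyp3a member whose counts were whole numbers by themselves in 7 of 7 libraries, with no sign of reads divided with another gene.

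Cyp3a25, another Cyp3a oxidase of adult liver, had 372, 251 and 347 TPM in 21-month livers, against 189, 220, 303 and 227 TPM in 3-month livers. The groups overlapped, since 21-month replicate 2 lay below 3-month replicate 3. The log2 fold change of 0.36 ± 0.17 SE did not pass (edgeR adjusted p = 0.206), but it was 0.55 and passed without 21-month replicate 2 (adjusted p = 0.0227). Both its counts and those of Cyp3a59, which is no member, were fractional in every library, and their sum was whole in 5 of 7 libraries. Cyp3a59 had 33.1, 14.3 and 21.96 TPM at 21 months, against 9.81, 8.84, 14.0 and 16.6 TPM at 3 months. The pair summed gave a log2 fold change of 0.38 ± 0.18 SE (edgeR adjusted p = 0.201).

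**Figure D1:**
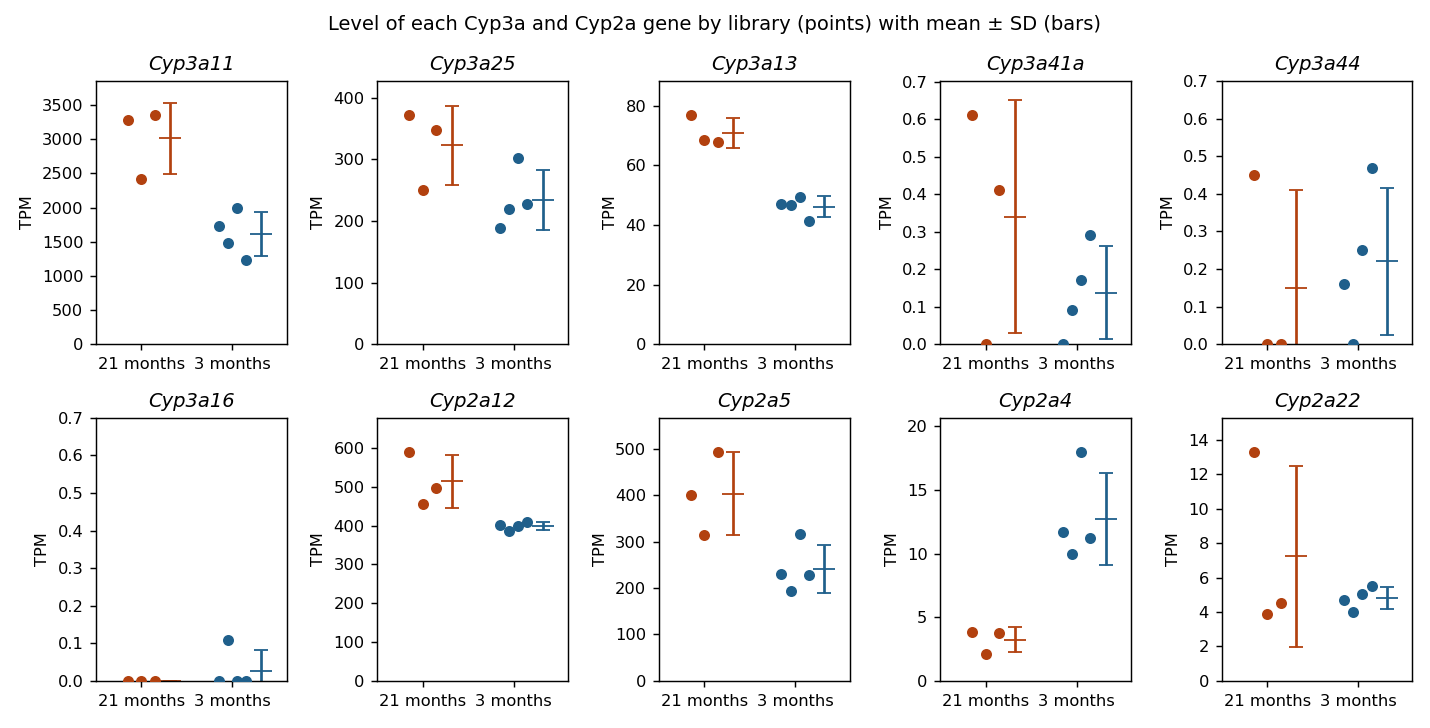
Level in TPM of each of the 10 genes in every library, with 21 months left of 3 months in each panel and a separate vertical axis for each gene. Points are libraries, and bars show the mean ± SD (n = 3 at 21 months, n = 4 at 3 months), cut at 0 where the SD reaches below it. Points do not overlap for Cyp3a11, Cyp3a13 and Cyp2a12, which sit higher at 21 months, and for Cyp2a4, which sits lower.

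Cyp3a41a and Cyp3a44, known as copies of female mouse liver, and Cyp3a16, known from fetal and early postnatal liver, were at or near 0 in all 7 libraries. Cyp3a41a had 0.61, 0 and 0.41 TPM at 21 months, against 0, 0.09, 0.17 and 0.29 TPM at 3 months. Cyp3a44 had 0.45, 0 and 0 TPM at 21 months, against 0.16, 0, 0.25 and 0.47 TPM at 3 months. Neither gene separated the ages, and Cyp3a16 was at 0 in every library except 3-month replicate 2, with 0.11 TPM from 1.03 counts. Cyp3a41b, a further copy outside the members, was listed at 0 in all 7 libraries. The 3 members together held 10.75, 0 and 3.29 counts at 21 months, against 0.90, 2.09, 2.03 and 5.25 counts at 3 months. At these depths an observed 0 is compatible with 3 counts, or 0.296, 0.419 and 0.357 counts per 1e+06 scaled counts (CPM) in the 21-month libraries, against 0.547, 0.257, 0.607 and 0.487 CPM in the 3-month libraries. With at most 10.75 counts in a library, no difference was detectable at this depth (edgeR adjusted p = 0.739, two-sided exact permutation p = 0.857). The fitted log2 difference of 0.54 ± 0.84 SE depends on the prior count and is no estimate of a fold. Cyp3a11 had whole counts by itself in 1 of 7 libraries. Summed with these 3 copies, Cyp3a41b and Cyp3a57, its counts were whole, within 0.02, in 5 of 7. Reads may thus be divided between Cyp3a11 and these copies, and how well that division follows their true origin was not tested. The levels near 0 depend on it as well as on depth.

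The 6 Cyp3a genes summed reached 3821, 2582 and 3577 CPM in 21-month livers, against 2194, 1726, 2328 and 1725 CPM in 3-month livers. The ages did not overlap, although 21-month replicate 2 lay close above 3-month replicate 3. The log2 fold change of the sum was 0.74 ± 0.15 SE, or 1.67-fold (edgeR adjusted p = 0.00726). An exact permutation test on the log2 of the summed CPM gave a two-sided p of 0.0286, the smallest that the 35 splits of 7 libraries allow. The sum was for the most part Cyp3a11, which made up 87.9%, 88.3% and 89.0% of the summed Cyp3a TPM at 21 months, against 88.0%, 84.7%, 84.9% and 82.1% at 3 months. Cyp3a25 took 9.98%, 9.15% and 9.22% at 21 months, against 9.59%, 12.6%, 12.9% and 15.1% at 3 months, and Cyp3a13 1.80% to 2.50% at 21 months, against 2.11% to 2.74% at 3 months. Without Cyp3a11, the other 5 genes gave a log2 fold change of 0.39, which did not pass (edgeR adjusted p = 0.0793).

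**Figure D2:**
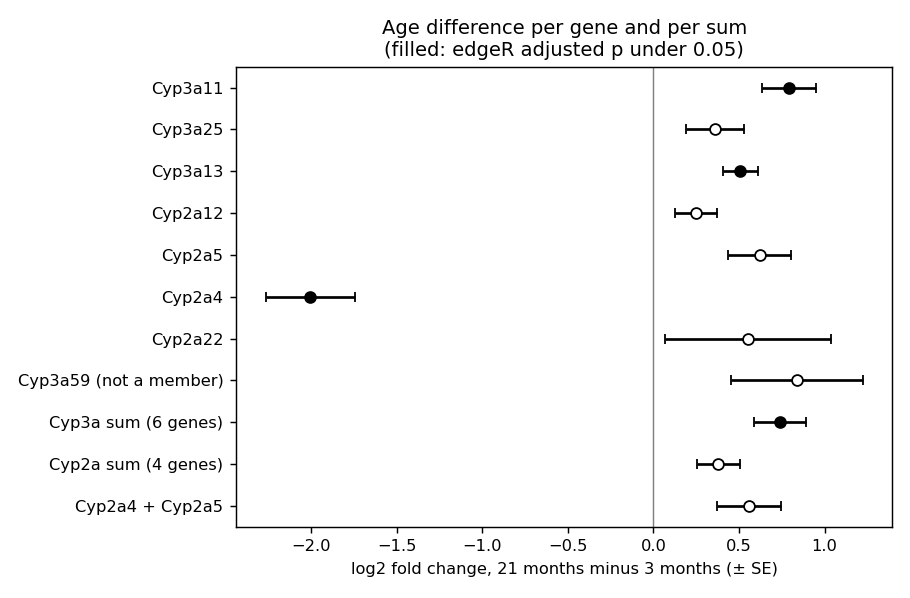
Log2 fold change at 21 months relative to 3 months, with ± SE as bars, for the 7 tested members, Cyp3a59 and 3 sums, from edgeR's quasi-likelihood test on 3 and 4 libraries. Filled points have an adjusted p under 0.05: Cyp3a11 at 0.79, Cyp3a13 at 0.51, Cyp2a4 at -2.01 and the Cyp3a sum at 0.74.

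Cyp2a4, which hydroxylates testosterone and is known as a female-biased gene of mouse liver, had 3.83, 2.10 and 3.74 TPM in 21-month livers, against 11.7, 9.95, 17.97 and 11.2 TPM in 3-month livers. All 21-month libraries lay below all 3-month libraries. Its log2 fold change was -2.01 ± 0.26 SE (edgeR adjusted p = 0.000467), between -2.18 and -1.69 in 18 alternatives, and passed in each of them. These values rest on few reads: 32.97, 11.68 and 24.79 expected counts in the 21-month libraries, against 58.81, 94.46, 73.18 and 65.69 in the 3-month libraries. Among the 102 Cyp genes Cyp2a4 ranked 59 by mean TPM at 21 months and 42 at 3 months.

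Cyp2a5, the mouse coumarin hydroxylase, had 401, 315 and 493 TPM in 21-month livers, against 230, 194, 316 and 228 TPM in 3-month livers. The groups met where 21-month replicate 2 lay just below 3-month replicate 3, and the other libraries of each age lay apart. The log2 fold change of 0.62 ± 0.19 SE did not pass (edgeR adjusted p = 0.0606). With the replicate number as a block it was 0.63 and passed (edgeR adjusted p = 0.00129), and over all 18 alternatives the adjusted p ran between 0.00129 and 0.357, with 8 of them under 0.05. The others were library totals (edgeR adjusted p = 0.0454), DESeq2 (0.00536), voom (0.0430) and limma on TPM at either pseudocount (0.0304 and 0.0325). So were edgeR without 21-month replicate 2 (0.00836) and without 3-month replicate 3 (0.0337).

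Both genes gave fractional counts in every library, whereas their sum was a whole number, within 0.02 counts, in 7 of 7 libraries, the pattern left where reads are divided between these genes alone. Of their joint counts, 0.946%, 0.662% and 0.754% were assigned to Cyp2a4 at 21 months, against 4.83%, 4.88%, 5.39% and 4.69% at 3 months. The share differed by -4.16 percentage points, 21 months minus 3 months (two-sided exact permutation p = 0.0286, the smallest of 35 splits), and by -4.25 to -4.01 points in 10 alternatives. From counts rounded to whole numbers, the exact Clopper-Pearson 95% intervals of single libraries reached up to 1.33% at 21 months and down to 3.66% at 3 months, and cover counting error only. How well the division follows the true origin of the reads was not tested. Summed, the pair had 344, 246 and 391 CPM at 21 months, against 222, 166, 275 and 227 CPM at 3 months, which overlap. Its log2 fold change of 0.56 ± 0.19 SE did not pass (edgeR adjusted p = 0.0873, two-sided exact permutation p = 0.0857), but with the replicate block it was 0.57 and passed (edgeR adjusted p = 0.00222).

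**Figure D3:**
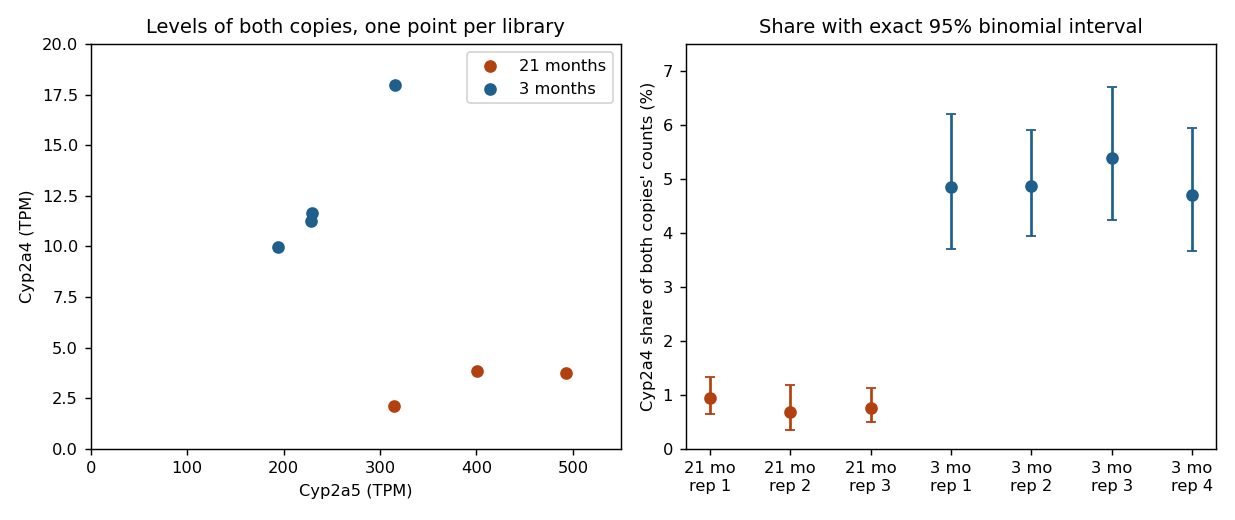
Left, Cyp2a4 against Cyp2a5 in TPM with 1 point per library, both axes linear. Right, the share of both genes' counts assigned to Cyp2a4 in percent per library, with exact 95% binomial intervals, both from rounded counts. The 3 libraries of 21 months lie under 1%, and the 4 libraries of 3 months lie between 4.71% and 5.38%, with no interval shared between the ages.

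Cyp2a12, which hydroxylates testosterone and bile acids, had 590, 456 and 497 TPM in 21-month livers, against 401, 386, 398 and 410 TPM in 3-month livers. Its TPM did not overlap between the ages, but its CPM did (403 ± 73.5 at 21 months, against 339 ± 33.5 at 3 months). The log2 fold change from counts was 0.25 ± 0.12 SE and did not pass (edgeR adjusted p = 0.207), while on log2 TPM it was 0.36 and passed by limma with a pseudocount of 1 or 0.1 (adjusted p = 0.0403 and 0.0410). On that scale the median of all genes itself lay 0.104 or 0.119 above 0, and 74.9% or 74.3% of all calls were higher at 21 months, against 48.3% on the counts. Cyp2a22 had 13.3, 3.86 and 4.55 TPM at 21 months, against 4.68, 3.98, 5.05 and 5.50 TPM at 3 months. 21-month replicate 1 alone stood above the rest, and the log2 fold change of 0.55 ± 0.48 SE (edgeR adjusted p = 0.528) turned to -0.33 without it. Cyp2a12 and Cyp2a22 shared reads with each other, their sum being whole in 7 of 7 libraries, and together gave a log2 fold change of 0.25 ± 0.12 SE (edgeR adjusted p = 0.212).

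The 4 Cyp2a genes summed reached 843, 594 and 775 CPM in 21-month livers, against 585, 475, 598 and 611 CPM in 3-month livers. 21-month replicate 2 lay within the 3-month range. The log2 fold change of the sum was 0.38 ± 0.13 SE, or 1.30-fold, and did not pass (edgeR adjusted p = 0.0644, two-sided exact permutation p = 0.0857). With the replicate block it was 0.41 and passed (edgeR adjusted p = 0.0176). Cyp2a12 made up 58.5%, 58.7% and 49.8% of the summed Cyp2a TPM at 21 months, against 61.9%, 65.0%, 54.0% and 62.5% at 3 months, and Cyp2a5 39.8%, 40.5% and 49.4% at 21 months, against 35.5%, 32.7%, 42.8% and 34.9% at 3 months.

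By mean TPM the order of the members at 21 months was Cyp3a11, Cyp2a12, Cyp2a5, Cyp3a25, Cyp3a13, Cyp2a22, Cyp2a4, Cyp3a41a, Cyp3a44 and Cyp3a16. Neighbours whose libraries overlapped at that age were Cyp2a12 with Cyp2a5, Cyp2a5 with Cyp3a25, and Cyp3a41a with Cyp3a44 and Cyp3a16. Cyp2a4 lay below Cyp2a22 in all 3 libraries at 21 months and above it in all 4 libraries at 3 months, and Cyp3a44 stood above Cyp3a41a in mean at 3 months with overlapping values. The rest of the order was the same at both ages, and Cyp2a5 and Cyp3a25 overlapped at 3 months too. In CPM, 3 of the 7 tested members did not overlap between the ages (Cyp3a11, Cyp3a13 and Cyp2a4), beside 24.2% of all genes tested.

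**Figure D4:**
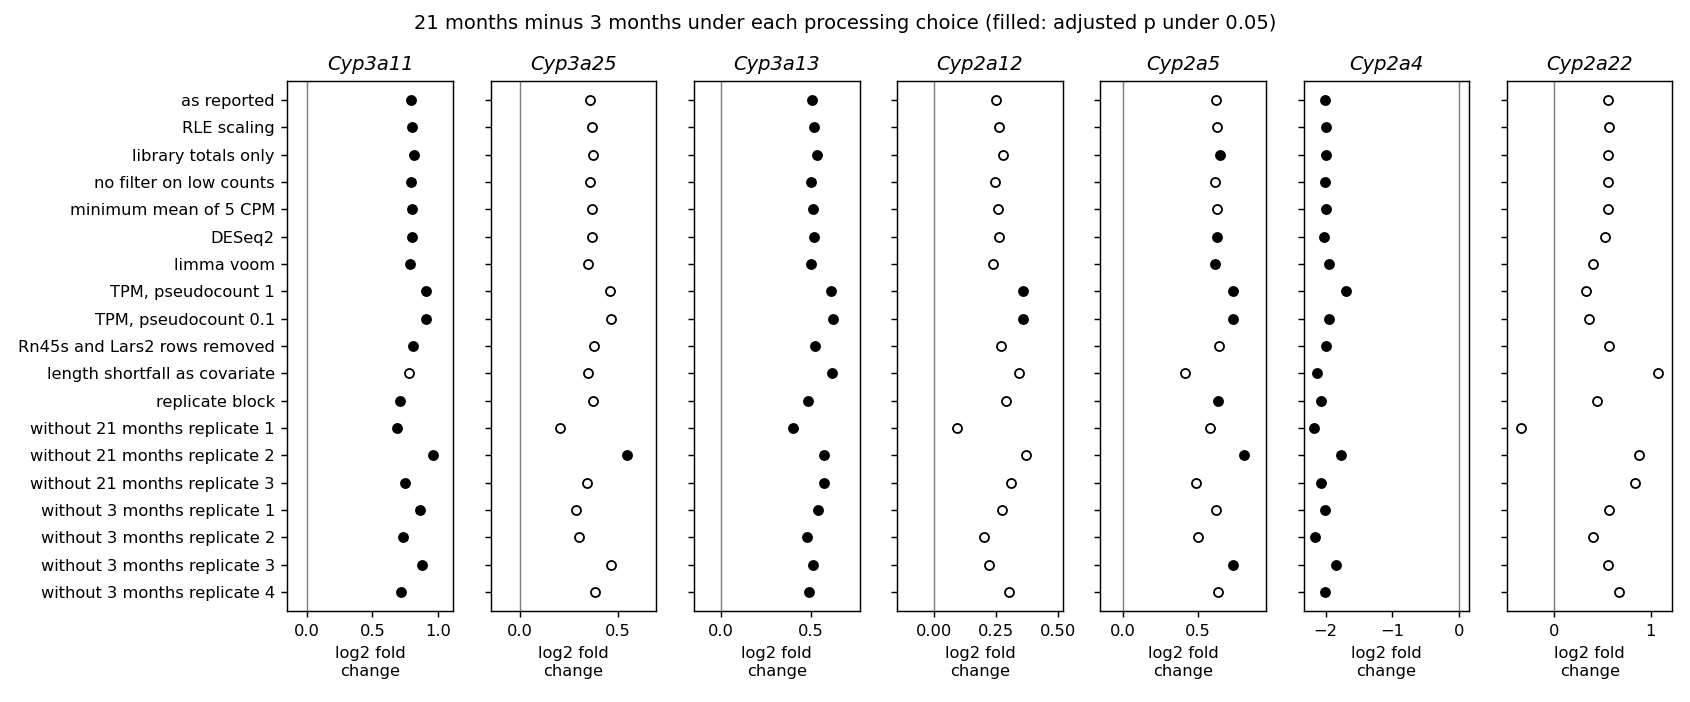
Log2 fold change at 21 months relative to 3 months of the 7 tested members under the analysis as reported (top) and each of 18 alternatives, with a separate horizontal axis per gene. Filled points have an adjusted p under 0.05. Cyp3a13 and Cyp2a4 are filled in each line, Cyp3a11 in each except with the length shortfall as covariate, and Cyp2a5 in 8 of the 18 alternatives.

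Genes most like the 3 called members were taken by the smallest root mean square difference of centred log2 CPM over the 7 libraries. For Cyp3a11 they were Kcnk5 (0.105), Gstt2 (0.112) and Chpt1 (0.123). For Cyp3a13 they included Slc47a1 (0.0461) and Ech1 (0.0645), while Cyp3a11 and Cyp3a13 were 0.234 apart. For Cyp2a4 the differences were larger, at 0.274 for Nolc1, 0.379 for Mup21 and 0.394 for Gm14288. The age groups are part of each profile, so these distances describe likeness and test nothing.

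Among genes that drive or serve these enzymes, the share called was not above the 11.3% called over all genes. Of 13 tested genes of electron supply and heme synthesis, 0 rose and 0 fell by edgeR (median log2 fold change 0.11), DESeq2 or voom, and at an unadjusted p under 0.05 there were 2 higher and 0 lower by edgeR. The replicate block gave 1 fall, and TPM at either pseudocount, or leaving out 21-month replicate 2, gave 1 rise. Pgrmc1, a heme-binding partner of P450 enzymes, had the smallest adjusted p among them (0.31 ± 0.11 SE, edgeR adjusted p = 0.0778), and Por, the electron donor, was at 0.15 ± 0.11 SE. Of 29 tested transcription factors and cofactors with known roles in Cyp3a or Cyp2a expression, 2 rose and 1 fell (median 0.08). Nr1i2, which encodes PXR, had 59, 45 and 62.8 CPM at 21 months, against 50.6, 45.7, 61.7 and 50.3 CPM at 3 months, which overlap (log2 fold change 0.10, edgeR adjusted p = 0.667). Nr1i3, which encodes CAR, was at 0.20 (edgeR adjusted p = 0.312), Hnf4a at -0.23 (0.181) and Nfe2l2, which encodes NRF2, at 0.20 (0.348). Cebpb, a liver-enriched leucine zipper factor, rose to 58.2 ± 5.79 CPM at 21 months, against 35.5 ± 3.51 CPM at 3 months (log2 fold change 0.71 ± 0.11 SE, edgeR adjusted p = 0.00128). Foxa3, a forkhead factor, fell with a log2 fold change of -0.59 ± 0.14 SE (edgeR adjusted p = 0.0190). Ppargc1a, a coactivator, rose by 0.85 ± 0.24 SE (edgeR adjusted p = 0.0348), and missed the threshold when any library other than 21-month replicate 1 was left out (edgeR adjusted p 0.0579 to 0.116). Foxa3 missed it without 21-month replicate 3 or 3-month replicate 1 or 4 (edgeR adjusted p 0.105, 0.0530 and 0.0619). With the length shortfall as covariate the adjusted p was 0.145 for Foxa3 and 0.177 for Ppargc1a, which DESeq2 and voom did not call either (0.0538 and 0.0507).

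Outside the 2 families, 16 of 25 tested targets of CAR and PXR rose and 0 fell (median log2 fold change 0.73, beside -0.00149 over all genes tested). Over all genes tested, 5.47% were called higher. All gene lists read here, like the members, were chosen with earlier results of these data known, so their counts are no independent support. By DESeq2 17 rose and by voom 15, and 0 were lower by edgeR even at an unadjusted p under 0.05. Cyp2b10, the best known CAR target, rose to 22.3 ± 7.39 CPM at 21 months, against 2.59 ± 1.08 CPM at 3 months (edgeR adjusted p = 0.000889). Cyp2c37 rose 2.57-fold, Gstt1 1.78-fold and Cyp2c29 1.70-fold (edgeR adjusted p = 0.000438, 0.000231 and 0.000915). Leaving out 21-month replicate 3 gave 9 rises, leaving out 3-month replicate 1 or 4 gave 10, and the length shortfall as covariate gave 9. Of 16 tested NRF2 targets, 2 rose and 0 fell (median 0.13): Nqo1, a quinone reductase, at 1.38 ± 0.27 SE and Srxn1, a sulfiredoxin, at 0.72 ± 0.16 SE (edgeR adjusted p = 0.00507 and 0.0110). Leaving out 21-month replicate 1 gave 4 rises. At an unadjusted p under 0.05, 2 NRF2 targets were lower by edgeR, and voom called 1 gene of the list lower. Nqo1 and Srxn1 missed the threshold with the length shortfall as covariate (edgeR adjusted p = 0.0536 and 0.0648).

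Because several members are known to differ between the sexes, sex-biased genes outside the families were counted too. These lists were likewise chosen with earlier results of these data known. Over all genes tested, 5.47% were called higher and 5.86% lower. The Y-linked gene Ddx3y was at 22.5 to 37.1 CPM at 21 months, against 29.6 to 40.2 CPM at 3 months, and Xist, the RNA of the inactive X chromosome, at 0.119 to 0.237 CPM at 21 months, against 0.0618 to 0.721 CPM at 3 months. Of 13 tested female-biased genes, 5 rose and 0 fell (median 1.12), whereas the female-biased member Cyp2a4 fell and Cyp3a41a and Cyp3a44 stayed near 0. Ntrk2, a neurotrophin receptor, rose to 8.53 ± 3.54 CPM at 21 months, against 0.846 ± 0.473 CPM at 3 months (edgeR adjusted p = 0.000653). Hamp2, a hepcidin, rose 2.17-fold (edgeR adjusted p = 0.0153) and Trim24, a nuclear receptor cofactor, 2.16-fold (0.0158). Without 21-month replicate 3 the adjusted p was 0.0575 for Hamp2 and 0.0508 for Trim24, which with the replicate block was 0.0560 and without 3-month replicate 3 was 0.0539. Cyp2b9, which stands on the CAR and PXR list as well, had 327, 59.1 and 96.3 counts at 21 months, against 0, 0, 0 and 1 at 3 months (edgeR adjusted p = 0.00719, and 0.146 without 3-month replicate 4). The 5 rises became 3 when 21-month replicate 3 or 3-month replicate 4 was left out and 2 with the length shortfall as covariate. Of 23 tested male-biased genes, 0 rose and 9 fell (median -0.73), among them Mup7 (5.87-fold lower), Ugt2b38 (4.17-fold lower), Mup21 (3.34-fold lower) and Nudt7 (1.76-fold lower; edgeR adjusted p = 0.000538, 0.000393, 5.6e-06 and 0.00249). The male-biased falls numbered 7 to 13 when 1 library was left out, and 13 by DESeq2 or voom, where 0 were higher. Without 3-month replicate 1 there was 1 rise among them. At an unadjusted p under 0.05, edgeR had 0 male-biased genes higher and 1 female-biased gene lower, and DESeq2 and voom called 0 female-biased genes lower, whereas 1 was called lower by edgeR with no filter or without 21-month replicate 1. Reads of Mup, Cyp2b, Cyp2c and Ugt2b genes can be divided among close copies, so their single values are uncertain.

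Many liver P450 genes differ along the axis of the lobule, so genes of its zones were read beside the members. The counts in this paragraph stand beside 5.47% called higher and 5.86% called lower over all 11251 genes tested. Of 20 pericentral genes, 1 rose and 1 fell (median 0.01), namely Aldh3a2 at 0.96 and Rnf43 at -0.50, and of 20 periportal genes 2 rose and 2 fell (median -0.01), namely G6pc at 0.56, Ctsc at 0.54, Sox9 at -0.74 and Cdh1 at -2.04. Leaving out 21-month replicate 2 gave 4 rises and 0 falls among pericentral genes. Rnf43 missed the threshold with the replicate block (edgeR adjusted p = 0.0572) and without 21-month replicate 2 or 3 or 3-month replicate 4 (0.0748, 0.0612 and 0.0750). Cdh1 missed it without 21-month replicate 3 or 3-month replicate 2 (0.0794 and 0.0533). Taking the length shortfall as covariate, Rnf43, G6pc, Sox9 and Cdh1 all missed it (0.0703, 0.0769, 0.0886 and 0.118), and on TPM so did Rnf43 (0.122) and Sox9 (0.0620 and 0.0631). Of 56 other tested Cyp genes, 12 rose and 2 fell (median 0.14), and of the 31 among these in families 1 to 3, 9 rose and 1 fell (median 0.29). The median over the 7 tested members was 0.51.

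**Figure D5:**
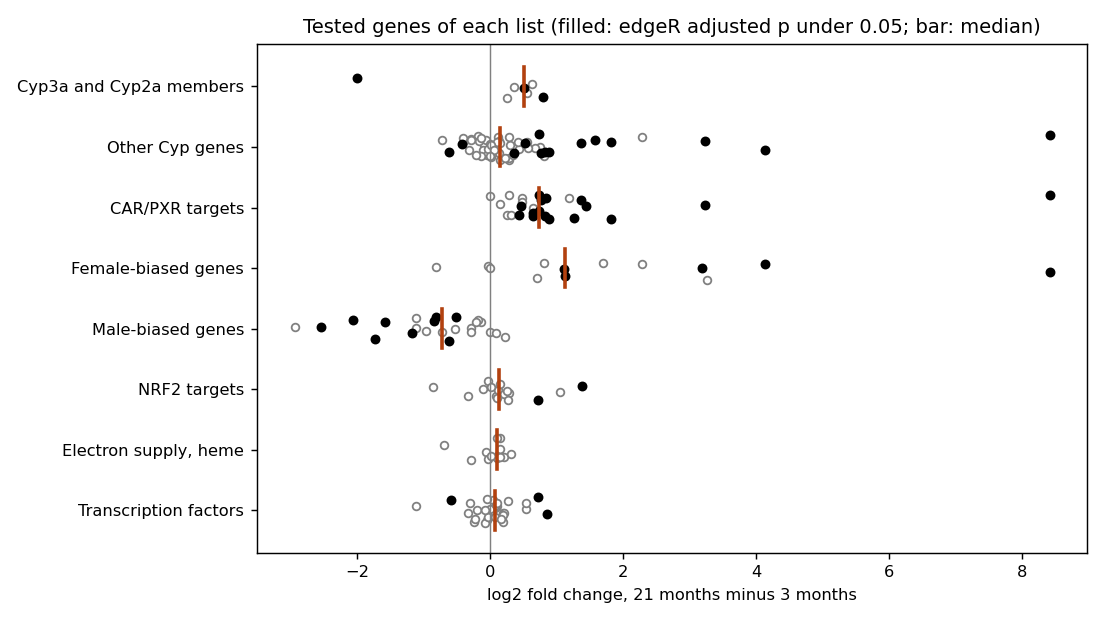
Log2 fold change at 21 months relative to 3 months of each tested gene, grouped by list, with the median as a vertical bar. Filled points have an edgeR adjusted p under 0.05. The 25 CAR and PXR targets have a median of 0.73 and the 23 male-biased genes one of -0.73, while the medians for electron supply and heme (0.11), transcription factors (0.08) and NRF2 targets (0.13) lie near 0. Some genes stand on more than 1 list.

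Libraries held 6882935 to 10458583 expected counts at 21 months, against 4724687 to 11143125 at 3 months. Hepatocyte markers were abundant (9 tested, 1 higher, 1 lower), with a summed level of 81400 to 86000 CPM at 21 months, against 66000 to 78900 CPM at 3 months. That sum was for the most part Alb, the marker called higher (51800 ± 1760 CPM at 21 months, against 36200 ± 6470 CPM at 3 months). The median log2 fold change of the 9 was -0.19, and at an unadjusted p under 0.05 edgeR had 1 higher and 4 lower. The summed levels of B and plasma cell markers were 9.07 to 43.4 CPM at 21 months, against 3.08 to 4.45 CPM at 3 months, those of T and NK cells 2.91 to 4.76 CPM, against 1.14 to 1.75 CPM, and those of neutrophils 1.58 to 4.19 CPM, against 0.343 to 1.21 CPM. Of 2 tested B and plasma cell markers 1 was called higher, and no T, NK or neutrophil marker had enough counts. Markers of Kupffer cells (163 to 475 CPM at 21 months, against 265 to 433 CPM at 3 months), endothelial cells (152 to 350 CPM, against 206 to 345 CPM), stellate cells (213 to 306 CPM, against 174 to 243 CPM), red cells (1040 to 1320 CPM, against 650 to 1850 CPM) and fat cells (26.2 to 34.7 CPM, against 19.9 to 34.0 CPM) overlapped in sum. Among them the stellate marker Dcn was called higher (101 ± 6.43 CPM at 21 months, against 61.5 ± 7.67 CPM at 3 months; edgeR adjusted p = 0.00105) and the endothelial marker Lyve1 lower (1.98 ± 0.673 CPM, against 5.16 ± 2.86 CPM; 0.0359). Bile duct markers summed to 28.9 to 31.6 CPM at 21 months, against 31.8 to 46.4 CPM at 3 months, with Sox9 called lower among 4 tested. The part of these cells in the members' results was not tested. Beside these marker counts, 5.47% of all genes tested were called higher and 5.86% lower. The median shortfall of effective length against gene length, read from the tables, was 35.4, 30.9 and 21.4 bases in the 21-month libraries, against 34.4 to 38.8 bases in the 3-month libraries. With that shortfall as a covariate, the log2 fold change of the Cyp3a sum was 0.73 and not past the threshold (edgeR adjusted p = 0.0765), and 332 genes were called in place of 1274.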

How the data were processed

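RNA-seq tables from 7 liver libraries of C57BL/6 mice were used. The authors deposited estimated counts per gene, named expected counts per the file headers, of which 86.5% were whole within 0.005. The authors also deposited TPM values, which are corrected for gene length and library depth. The submitters' processing notes name TopHat, RSEM, edgeR and mm9, with versions not given in the sources used here. FPKM values were not used.

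Expected counts were rounded, filtered by filterByExpr (minimum count 10, minimum total 15; 11251 of 23366 genes), scaled by TMM and tested with edgeR 4.0.16 (robust quasi-likelihood test, 21 against 3 months, Benjamini-Hochberg over all genes tested, threshold 0.05). Family sums were added as further features after scaling. The SE is the log2 fold change divided by the root of F. CPM are per 1e+06 scaled counts. Sums and shares were also tested by exact permutation over 35 splits, sums on log2(CPM + 0.1). Alternatives were RLE scaling, library totals, no filter, a mean of 5 CPM, DESeq2 1.42.0, limma 3.58.1 voom, limma on log2 TPM (pseudocounts 1 and 0.1), removal of Rn45s and Lars2, the length shortfall as covariate, the replicate number as a block and leaving out each library. R 4.3.3, Python 3.11.15, Biopython 1.88 and matplotlib 3.10.9 were used, and the test was checked on simulated counts. Promoters came from RefSeq (GRCm38.p6), and 10 of 10 members matched by symbol.

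Libraries held 4724687 to 11143125 expected counts, so a count of 0 allows 0.257 to 0.607 CPM (3 counts). Intervals and floors reflect counting error alone, because amplified copies of a molecule are not independent. Every pair of libraries within an age differed by more than counting noise. Nothing in the labels states that each library is another animal, and p-values then measure only a spread between samples that may be technical. Sex, cage, feeding and time of sampling are not given in the labels. Same-numbered libraries of the 2 ages deviated together (correlations of deviations from the group means over 11251 genes of 0.11, 0.176 and 0.108), although 21-month replicate 1 and 3-month replicate 4, with different numbers, were at 0.157. On that basis from the data, the replicate block treated the numbers as pairs, since no label gives a shared batch. 3-month replicate 4 has no partner at 21 months, so under the block it adds nothing to the age difference. Whether the numbers mark true pairs was not tested, and calls under the block rest on that assumption.

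Members and lists were chosen with earlier results of these data known. All 10 members are named, with the 3 nearest profiles of each called member, at most 4 genes per list, those of smallest adjusted p, besides Nr1i2, Nr1i3, Hnf4a and Nfe2l2. Genes of the lists are from textbook knowledge. Por was named after its values were seen. Some results that these rules would name are not reported here.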

Additional observations from a re-analysis of the deposited data

Results flagged for a closer look

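Cyp3a16 stood out in 1 of the 4 libraries of 3 months: 3-month replicate 2 had 0.0884 CPM, from 1.03 counts, and the other 3 libraries of that age and all 3 libraries of 21 months were at 0. That level is under the 0.257 CPM that a count of 0 allows in that library. Where all other libraries of an age are at 0, any count sets the remaining library fully apart. A chance rate of about 1 in 20 groups therefore does not apply to this gene. No conclusion is drawn from its 1.03 counts.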

How the results depend on the processing

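Cyp3a13 and Cyp2a4 kept direction and call in all 18 alternatives. The Cyp2a4 share of the pair's counts kept its direction in all 10 alternatives run for it. Of these, only the share on TPM was tested (two-sided exact permutation p = 0.0286), and the rest gave a difference alone. Both genes have a length of 1715 bases, so the share on TPM is nearly the same by construction. Other scalings, filters and tests were not run for that share. Called members numbered 3, but 4 with library totals, DESeq2, voom or the replicate block, and 5 with TPM at either pseudocount. They numbered 3 to 5 when 1 library was left out (5 without 21-month replicate 2). With the length shortfall as covariate, 2 members were called, and the Cyp3a sum missed the threshold (0.73, edgeR adjusted p = 0.0765). It also missed without Cyp3a11 (0.39, adjusted p = 0.0793), and ran between 0.63 and 0.91 when 1 library was left out. The Cyp2a sum passed with library totals (0.41, adjusted p = 0.0432), no filter (0.38, 0.0404), DESeq2 (0.39, 0.0472) and limma on TPM (0.49 at either pseudocount, 0.0172 and 0.0178), and lay between 0.27 and 0.53 when 1 library was left out, passing without 21-month replicate 2 (adjusted p = 0.0115). Cyp2a4 plus Cyp2a5 passed with DESeq2 (0.57, adjusted p = 0.0161) and limma on TPM (0.67 at either pseudocount, 0.0420 and 0.0452), and lay between 0.43 and 0.74 when 1 library was left out, passing without 21-month replicate 2 or 3-month replicate 3 (0.0130 and 0.0465). The Cyp3a16, Cyp3a41a and Cyp3a44 sum, fitted at 0.54 from few counts, reversed with voom (-0.11), on TPM with pseudocount 0.1 (-0.15) and without 21-month replicate 1 (-0.85), and ran between -0.85 and 1.16 when 1 library was left out. Cyp2a22 reversed without 21-month replicate 1 and ran between -0.33 and 0.88 when 1 library was left out. Where no value above shows a cause, the cause was not tested. Sums without single copies and sums over read-sharing genes were chosen after seeing the data.

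With the replicate number as a block, the Cyp2a sum (0.41, edgeR adjusted p = 0.0176), Cyp2a4 plus Cyp2a5 (0.57, 0.00222) and Cyp2a5 (0.63, 0.00129) passed, and no other call of a member or of a family sum changed. Over all genes, 1274 were called as reported, 332 with the length shortfall as covariate, 580 without 21-month replicate 3, and 773, 834 and 745 without 3-month replicates 2, 3 and 4. Depth limits Cyp2a4, Cyp2a22 and the 3 copies near 0 most.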
